A study of Mus musculus with 35 samples.

Results

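The autophagy machinery was described here as 36 genes, chosen by name for their roles in building the autophagosome, in spinal cord microglia of a mouse model of amyotrophic lateral sclerosis. All 36 have a row in the table of 45706 genes, and all 36 were among the 13501 genes that passed the filter on low counts. They are 5 genes of the ULK complex, 5 of the phosphatidylinositol 3-kinase (PI3-kinase) complex, 5 of lipid transfer and phosphoinositide binding, 10 of the conjugation systems, 5 of the ATG8 family, 3 cargo receptors and 3 transcription factors.

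Autophagy encloses cytoplasm in a double membrane, the autophagosome, and delivers it to the lysosome. The ULK kinase complex starts the process, the PI3-kinase complex marks the membrane with a lipid, ATG9 and ATG2 proteins supply further lipid, and conjugation enzymes attach ATG8 proteins (LC3 and GABARAP) to the growing membrane, where cargo receptors bind them. The transcription factors TFEB, TFE3 and MITF induce many of these genes and lysosomal genes, and microglia, the resident macrophages of the central nervous system, use parts of the same machinery when they degrade engulfed material.

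In rNLS8 mice (NEFH-tTa/tetO-hTDP43, genotype +/+) a neurofilament heavy chain promoter, active in neurons, drives the tetracycline transactivator and through it a human TDP-43 without its signal for import into the nucleus. Dietary doxycycline (DOX) keeps the transgene silent. Microglia themselves are not the cells that this promoter addresses. All mice were of a mixed C57BL/6J X C3HeJ F1 strain and stayed on DOX until 8 to 12 weeks of age. Microglia were sorted on CD11b and CD45 from whole spinal cord, and bulk RNA of each library was sequenced.

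The 35 libraries fall into 4 groups by phenotype label. Early disease is 7 rNLS8 mice without DOX for 2 weeks, late disease is 7 rNLS8 mice without it for 6 weeks, and recovery is 7 rNLS8 mice without it for 6 weeks and then on it for 1 week. The 14 controls are 6 rNLS8 mice kept on DOX for 6 weeks and 8 wild-type (WT, -/-) littermates. Of the WT mice, 4 had no DOX for 2 weeks, 1 for 6 weeks, and 3 for 6 weeks followed by 1 week on it.

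Sample titles carry a date code, and it is not balanced over the groups. All 6 rNLS8 controls and 3 of the WT controls have the code 0810, the 5 other WT controls 1019 or 1102, early and late disease 1019, 1102 or 1130, and all 7 recovery libraries 0803. Recovery and its date code therefore cannot be told apart. Total counts ran from 13.9 to 20.4 M per library. A library's share of TPM (a length-scaled measure of transcript abundance) that falls outside the deposited gene table also moved with the date, at 20.2 ± 6.36% (SD, n = 6) in rNLS8 controls, 14.7 ± 0.669% (n = 3) in WT controls of code 0810, 6.38 ± 3.17% (n = 5) in the other WT controls, 4.35 ± 1.06% (n = 7) in early disease, 3.71 ± 0.773% (n = 7) in late disease and 5.9 ± 1.77% (n = 7) in recovery. The microglial markers P2ry12, Tmem119 and Cx3cr1 each stood at 1171 CPM or more in every library (CPM, the count scaled to a normalised library size).

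One library, Late disease 6, stood apart from the other 6 of late disease. Its P2ry12 level was 1709 CPM against 5409 to 6523, its Gpr34 level 148 CPM against 1790 to 3157, and its summed level of 11 monocyte markers 158 CPM against 32.1 to 60.3. Summed oligodendrocyte markers were 5270 CPM in it against 2120 to 2866, and border macrophage markers 746 CPM against 172 to 360. Late disease changes that this library moved most or turned in sign are given with and without it.

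The promoters of the 3 members that fell in late disease are shown, because the transcription factors TFEB and TFE3 bind an E-box with the core CACGTG and 1 of the 3 holds it. Each run is the 250 bases before the gene's start in RefSeq on GRCm38.p6 (the mm10 build), 5′ to 3′ on the gene's own strand, with CACGTG in capitals.
Atg5, chr10:44268089-44268338, plus strand: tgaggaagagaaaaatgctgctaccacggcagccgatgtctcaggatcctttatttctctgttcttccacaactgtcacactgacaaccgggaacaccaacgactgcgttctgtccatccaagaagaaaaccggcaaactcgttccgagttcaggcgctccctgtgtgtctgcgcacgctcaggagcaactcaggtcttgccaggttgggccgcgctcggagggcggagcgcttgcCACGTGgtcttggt
Atg101, chr15:101284051-101284300, plus strand: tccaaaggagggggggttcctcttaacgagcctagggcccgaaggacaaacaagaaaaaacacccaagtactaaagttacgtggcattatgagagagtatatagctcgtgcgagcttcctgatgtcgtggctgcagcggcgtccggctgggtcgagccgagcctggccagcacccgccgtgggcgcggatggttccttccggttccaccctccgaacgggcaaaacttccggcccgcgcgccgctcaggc
Gabarapl2, chr8:111940453-111940702, plus strand: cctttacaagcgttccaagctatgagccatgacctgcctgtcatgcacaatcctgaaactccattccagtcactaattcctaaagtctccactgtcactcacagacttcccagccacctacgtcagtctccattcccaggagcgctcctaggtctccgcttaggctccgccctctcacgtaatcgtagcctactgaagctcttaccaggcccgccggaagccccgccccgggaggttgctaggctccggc
The motif is a palindrome, so both strands were searched at once. In the Atg5 window it begins 14 bases before the start, and the windows of Atg101 and Gabarapl2 hold no match to these letters. Of 38 windows of the 30 members that RefSeq gave a window for, 3 (7.89%) held the motif, those of Atg3, with 2 matches, Atg5 and Atg7. Of all 32851 windows of the same length, 1978 (6.02%) held it. Windows were not used for Atg12, Atg16l1, Rb1cc1, Becn1, Pik3c3 or Map1lc3a.

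In controls, the members differed widely in level when compared per transcript length. Gabarap, an ATG8 protein, was the most abundant at 355 TPM (mean over 14 controls), followed by Map1lc3b, which encodes LC3B, at 148 TPM, and Gabarapl2 at 112 TPM. Next came Tfe3 at 104 TPM and the receptor Tax1bp1 at 88.7 TPM. The lowest were Atg2b at 2.87 TPM and Atg2a at 7.53 TPM, paralogs that move lipid into the growing membrane, with Atg16l2 at 4.03 TPM, Wipi1 at 4.41 TPM and Mitf at 8.79 TPM. Atg16l2, a paralog of the conjugation scaffold Atg16l1, had between 2 and 234 counts per library, so its level was measured with little precision. Atg101 had between 440 and 1162 counts. Among control libraries the members with the smallest spread were Tfeb, with an SD of 0.14 on the log2 CPM scale, and Atg5, with 0.17. Atg16l2 had the largest, 1.25, and Atg2a followed with 0.78. On that scale Atg16l2 stood at -2 in Control 7 and at 0.97 to 2.82 in the other controls. Atg2a stood at 2.45 in Control 11 and at 3.49 to 5.35 in the other controls.

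The first comparison asked whether the members had changed after 2 weeks of transgene expression. In early disease 0 of the 36 members passed edgeR's quasi-likelihood test at an adjusted p under 0.05, against 0.00741% of all genes tested, and 3 were at an unadjusted p under 0.05 (8.33%, against 12.6% of all genes). DESeq2 also called 0 members, beside 1.01% of all genes. The median change of the members was 0.06 on the log2 scale, beside 0 for all genes. The 3 members at an unadjusted p under 0.05 were Atg5 with a change of -0.18 ± 0.08 (SE; adjusted p = 0.321), Atg16l2 with 0.71 ± 0.34 (adjusted p = 0.376) and Ulk2 with 0.19 ± 0.09 (adjusted p = 0.383) by edgeR. With the rNLS8 controls alone, Atg5 passed, with a change of -0.30 ± 0.09 (adjusted p = 0.0408), beside 5.48% of all genes.

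**Figure D1:**
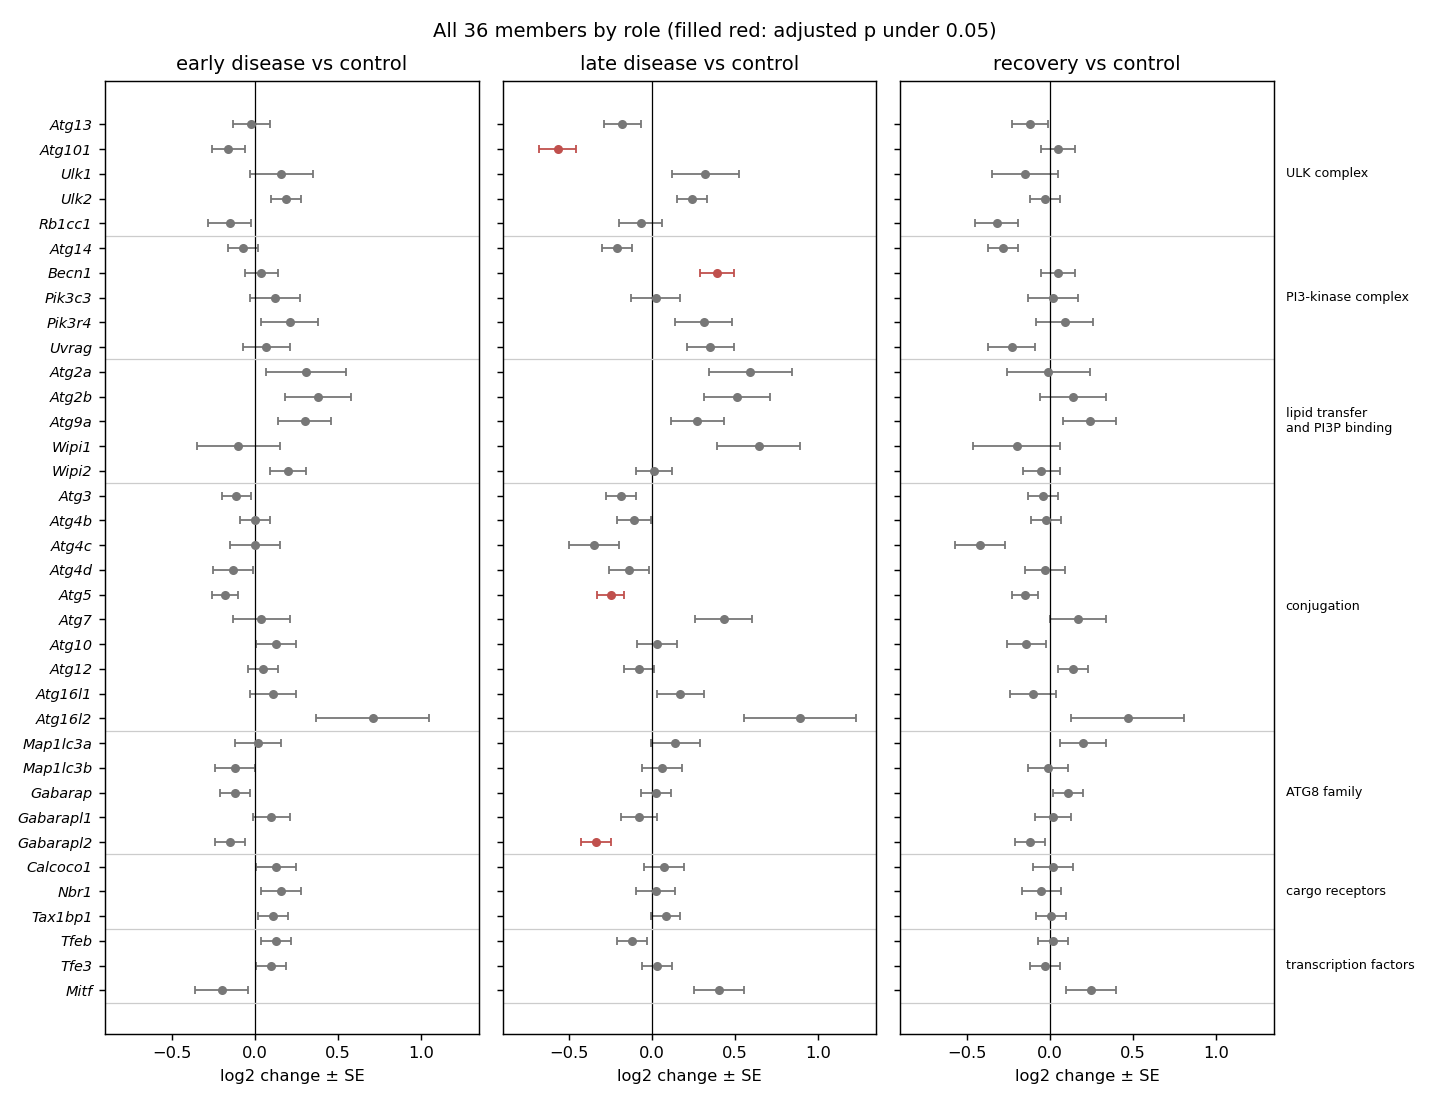
Log2 change with its SE (x axis) of each of the 36 members, ordered by role (y axis), in early disease, late disease and recovery, each against the same 14 controls; red marks an adjusted p under 0.05 by edgeR. The 4 red members are all in the late disease panel, Atg101, Gabarapl2 and Atg5 to the left of 0 and Becn1 to the right.

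In late disease 4 of 36 members passed the test, 1 higher and 3 lower. That is 11.1% of the members, against 15.4% of all genes tested (9.01% higher and 6.39% lower). Atg101, Gabarapl2 and Atg5 fell and Becn1 rose, each by less than 2-fold. The median change of the members was 0.03 on the log2 scale beside 0.02 for all genes, and the median size of change was 0.19 beside 0.26. At an unadjusted p under 0.05 there were 15 members (41.7%), against 29.4% of all genes. All 3 comparisons with control use the same 14 control libraries. In bulk RNA, fewer cells of a type and less RNA per cell cannot be told apart. Summed over 13 microglial markers, the level was 47854 to 74701 CPM in late disease and 67702 to 86999 CPM in controls, and summed over 11 monocyte markers 32.1 to 158 against 6.51 to 26.3 CPM, with 0 markers of either list at 0 in every late library. Of the 13 microglial markers 1 was called higher and 5 lower, against 9.01% and 6.39% of all genes. Of the monocyte markers tested 2 of 9 passed, both higher, and of the border macrophage markers 2 of 10, both higher. The part of these markers' cells in the values of the members was not tested.

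Of the ULK complex, 1 of 5 members passed. Atg101 (ENSMUSG00000037204.6, chromosome 15, 101284272 to 101290945, plus strand) encodes a subunit that binds and stabilises ATG13. Its level in the late disease libraries 1 to 7 was 28.1, 29.3, 24.9, 39.8, 36.5, 31.2 and 36.6 CPM. Controls ran from 38.9 to 63.8 CPM with a median of 46.3 CPM. All 7 late libraries were below the control median, and only Late disease 4 reached the lower end of the controls. The mean was 32.4 ± 5.41 CPM (SD, n = 7) against 47.9 ± 7.91 CPM (n = 14), a log2 change of -0.57 ± 0.11 (SE; adjusted p = 0.000553, edgeR). The kinase gene Ulk2 was at 208 ± 23.6 against 177 ± 25.2 CPM, with a change of 0.24 ± 0.09 (adjusted p = 0.075). Its paralog Ulk1 was at 43.4 ± 24.3 against 35 ± 8.2 CPM, 0.32 ± 0.20 (adjusted p = 0.291), and without Late disease 6 the Ulk1 change was 0. The scaffold genes Rb1cc1 (FIP200) and Atg13 had changes of -0.07 and -0.18 and did not pass.

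Of the PI3-kinase complex, 1 of 5 members passed. Becn1 (ENSMUSG00000035086.11, chromosome 11, 101285952 to 101302286, minus strand) encodes Beclin 1, the subunit that holds the complex together and is a main point of its regulation. Late disease libraries 1 to 7 were at 96.7, 67.3, 88.6, 70.4, 71.5, 121 and 85.1 CPM, and controls from 54 to 96.1 CPM with a median of 61.5 CPM. All 7 late libraries were above the control median, 2 of them (1 and 6) above every control, and the groups overlapped. The mean was 85.8 ± 19 CPM (n = 7) against 64.8 ± 10.8 CPM (n = 14), a log2 change of 0.39 ± 0.10 (adjusted p = 0.00979, edgeR). Without Late disease 6 it was 0.30 with an adjusted p of 0.0487. Cntd1, which overlaps Becn1 on the other strand, was at 0 to 0.982 CPM in controls and 0 to 0.845 CPM in late disease.

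The other members of the PI3-kinase complex did not pass. Uvrag, the subunit of the endosomal form of the complex, was at 86.1 ± 36.7 against 66.7 ± 10.4 CPM (0.35 ± 0.14, adjusted p = 0.0853). Late disease 6 held 168 CPM of Uvrag and the other late libraries 65.6 to 88.8 CPM, and without it the change was 0.12. Atg14, the subunit of the autophagosome form, had a change of -0.21 ± 0.09 (adjusted p = 0.109), the regulatory subunit gene Pik3r4 0.31 ± 0.17 (adjusted p = 0.233), and Pik3c3, the catalytic subunit, 0.02 ± 0.15 (adjusted p = 0.952). Without Late disease 6 the Pik3c3 change was -0.08.

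Of the members for lipid supply and phosphoinositide binding, 0 of 5 passed, and their median change was 0.51. Atg2a had a change of 0.59 ± 0.25 (adjusted p = 0.0989) and Atg2b of 0.51 ± 0.20 (adjusted p = 0.0788). Wipi1, which binds the lipid made by the PI3-kinase complex, was at 8.87 ± 5.18 against 5.41 ± 1.78 CPM (0.64 ± 0.25, adjusted p = 0.0767). Its paralog Wipi2 had a change of 0.01, and the lipid scramblase gene Atg9a one of 0.27 ± 0.16 (adjusted p = 0.263). Without Late disease 6 the changes of Wipi1, Atg2a, Atg2b and Atg9a were 0.35, 0.35, 0.41 and 0.03, and that of Wipi2 turned to -0.08.

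Of the conjugation genes, 1 of 10 passed. Atg5 (ENSMUSG00000038160.6, chromosome 10, 44268358 to 44364291, plus strand) is joined to ATG12, and the pair helps to place ATG8 proteins on lipid. Late disease libraries 1 to 7 were at 58.3, 76.1, 77.4, 78.5, 77.5, 74.5 and 75.8 CPM, and controls from 67.6 to 104 CPM with a median of 89.1 CPM. Late disease 1 was below every control, and the other 6 lay at 74.5 to 78.5 CPM, in the lower part of the control range. The mean was 74 ± 7.07 CPM (n = 7) against 88.4 ± 9.9 CPM (n = 14), a log2 change of -0.25 ± 0.08 (adjusted p = 0.027, edgeR). Without Late disease 1 the adjusted p was 0.0762, the only late or control library whose removal ended one of the 4 calls.

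Atg16l2 had a positive change that did not pass. Late disease libraries 1 to 7 were at 12.3, 3.65, 10.9, 5.22, 5.53, 9.51 and 6.09 CPM, and controls from 0.133 to 6.96 CPM with a median of 3.73 CPM. The change was 0.89 ± 0.34 (adjusted p = 0.0668, edgeR), and DESeq2 called it. The conjugation enzyme gene Atg7 was at 39.6 ± 18.4 against 28.7 ± 7.41 CPM (0.43 ± 0.17, adjusted p = 0.0737), with 80.5 CPM in Late disease 6 and 28.1 to 38.9 CPM in the others, and without that library the change was 0.19. Atg3, the enzyme that hands ATG8 proteins to lipid, had a change of -0.19 ± 0.09 (adjusted p = 0.139), and the protease gene Atg4c one of -0.35 ± 0.15 (adjusted p = 0.109). Atg4b, Atg4d, Atg10, Atg12 and Atg16l1 lay between -0.14 and 0.17.

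Of the ATG8 family, 1 of 5 passed. Gabarapl2 (ENSMUSG00000031950.7, chromosome 8, 111940703 to 111953612, plus strand), known as GATE-16, encodes an ATG8 protein of the GABARAP branch. Late disease libraries 1 to 7 were at 66.1, 77.3, 66, 77.7, 76.6, 63.7 and 85.5 CPM, and controls from 75.9 to 128 CPM with a median of 87.3 CPM. All 7 were below the control median, and 3 (1, 3 and 6) below every control. The mean was 73.3 ± 8.06 CPM (n = 7) against 92.4 ± 15.4 CPM (n = 14), a log2 change of -0.34 ± 0.09 (adjusted p = 0.0102, edgeR). The more abundant Gabarap was at 210 ± 31 against 208 ± 25.9 CPM (0.02 ± 0.09, adjusted p = 0.918) and Map1lc3b at 217 ± 81.2 against 206 ± 27.7 CPM (0.06 ± 0.12, adjusted p = 0.789). Gabarapl1 and Map1lc3a had changes of -0.08 and 0.14. Late disease 6 held 394 CPM of Map1lc3b and the other late libraries 151 to 221 CPM, and without it the Map1lc3b change was -0.14, below 0. Without it the changes of Gabarap and Map1lc3a were -0.02 and 0.01.

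Of the 3 cargo receptors and the 3 transcription factors, 0 passed. Tax1bp1, Nbr1 and Calcoco1, which link ubiquitinated or other cargo to ATG8 proteins, had changes of 0.08, 0.02 and 0.07. Without Late disease 6 these were 0, 0 and -0.01. Tfeb and Tfe3 had changes of -0.12 ± 0.09 and 0.03 ± 0.09 (adjusted p = 0.362 and 0.859, edgeR). Mitf was at 21.4, 19.1, 30.8, 18.2, 26.9, 24 and 18.9 CPM in late disease libraries 1 to 7, and from 10.6 to 24.1 CPM in controls with a median of 17.4 CPM. All 7 were above the control median, and the change of 0.40 ± 0.15 did not pass (adjusted p = 0.0719).

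**Figure D2:**
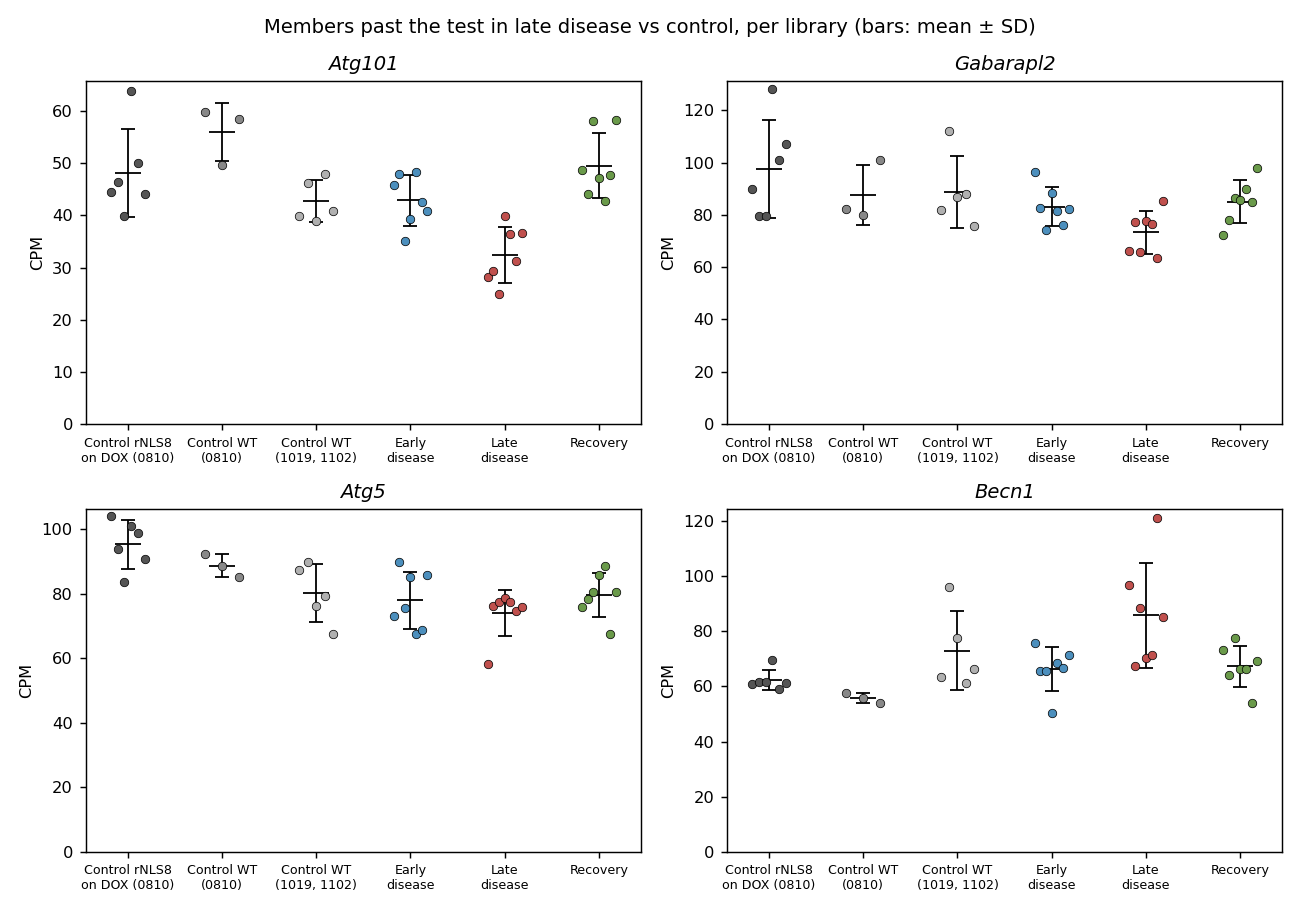
CPM (y axis, from 0) of the 4 members past the test in late disease, with 1 point per library, in 3 kinds of control by genotype and date code and in the 3 disease groups; bars are the mean with its SD. For Atg101 the late disease points lie at 24.9 to 39.8 and the recovery points at 42.8 to 58.3, without overlap, while for the other 3 members recovery overlaps with late disease.

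The 4 late disease calls depended on which controls and which date term entered the fit. With the date code as a term, the changes were -0.39 for Atg101, -0.23 for Gabarapl2, -0.10 for Atg5 and 0.27 for Becn1. Adjusted p ran from 0.377 to 0.841 by edgeR, and 0 members passed. Of all genes 0.133% passed with this term, against 15.4% without it. Against the 5 controls of shared date codes the 4 changes were -0.41, -0.28, -0.11 and 0.20, with adjusted p from 0.0711 to 0.593. There 0 members passed, beside 1.41% of all genes. With each library's outside TPM share as a covariate the changes were -0.38, -0.16, -0.08 and 0.34, with adjusted p from 0.0988 to 0.731. Again 0 members passed, beside 1.87% of all genes. With the 6 rNLS8 controls alone, all 4 were called, at -0.57, -0.41, -0.36 and 0.45, beside 17.1% of all genes. The sign of each member's change was the same in all of these fits. Atg101 stood at 48.1 ± 8.38 CPM (n = 6) in rNLS8 controls, 56.1 ± 5.56 CPM (n = 3) in WT controls of code 0810 and 42.7 ± 4.08 CPM (n = 5) in the other WT controls. Within date code 1130, which holds no control, late disease libraries were at 31.2 to 36.6 CPM of Atg101 and early disease at 40.9 and 42.5 CPM. Within 1019 the single late library was at 28.1 CPM and the 4 controls at 38.9 to 48 CPM. Within 1102 late disease ran from 24.9 to 39.8 CPM, early disease from 35.1 to 48.3 CPM, which overlaps it, and the single control was at 40.9 CPM. Atg5 stood at 95.3 ± 7.6 CPM in rNLS8 controls and 80.1 ± 8.97 CPM in WT controls of codes 1019 and 1102, against 74 CPM in late disease. Within 1102 Atg5 went the other way, at 76.1 to 78.5 CPM in late disease, 67.6 CPM in the control and 67.6 to 85 CPM in early disease. Within 1130 it was at 74.5 to 77.5 CPM in late and 68.8 and 85.9 CPM in early disease, and within 1019 at 58.3 CPM in the late library and 76.1 to 89.9 CPM in controls. For Becn1, late disease of code 1102 ran from 67.3 to 88.6 CPM, with the control at 66.2 CPM and early disease at 50.5 to 68.4 CPM. For Gabarapl2 it ran from 66 to 77.7 CPM, with the control at 75.9 CPM and early disease at 74.3 to 88.4 CPM, so both members overlapped early disease there. Within 1130 Becn1 was at 71.5 to 121 CPM in late and 66.6 and 71.4 CPM in early disease. Gabarapl2 overlapped there, at 63.7 to 85.5 CPM in late and 76.1 and 82.3 CPM in early disease. Within 1019 the late library held 96.7 CPM of Becn1 and the controls 61.4 to 96.1 CPM. Its Gabarapl2 level was 66.1 CPM, against 81.7 to 112 CPM in those controls. The part of date and of the TPM share in these calls was not tested beyond these fits.

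On the deposited TPM scale the median change of all genes in late disease was 0.18, and 12 members passed by limma on log2(TPM + 1), 11 higher and 1 lower, against 21.4% of all genes. The share of called genes that were higher rose too, with 2627 genes higher and 197 lower against 1217 and 863 on counts. Atg101 fell and Becn1 rose on this scale too, with changes of -0.36 and 0.50 (adjusted p = 0.00692 and 0.00099, limma), or -0.55 and 0.31 relative to that median. Gabarapl2 and Atg5 changed by -0.10 and -0.05 (adjusted p = 0.397 and 0.642, limma), which is -0.28 and -0.23 relative to the median. The other 10 members past the limma test were Atg16l2, Atg2a, Atg2b, Atg7, Gabarap, Map1lc3b, Ulk1, Ulk2, Uvrag and Wipi1, all higher.

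**Figure D3:**
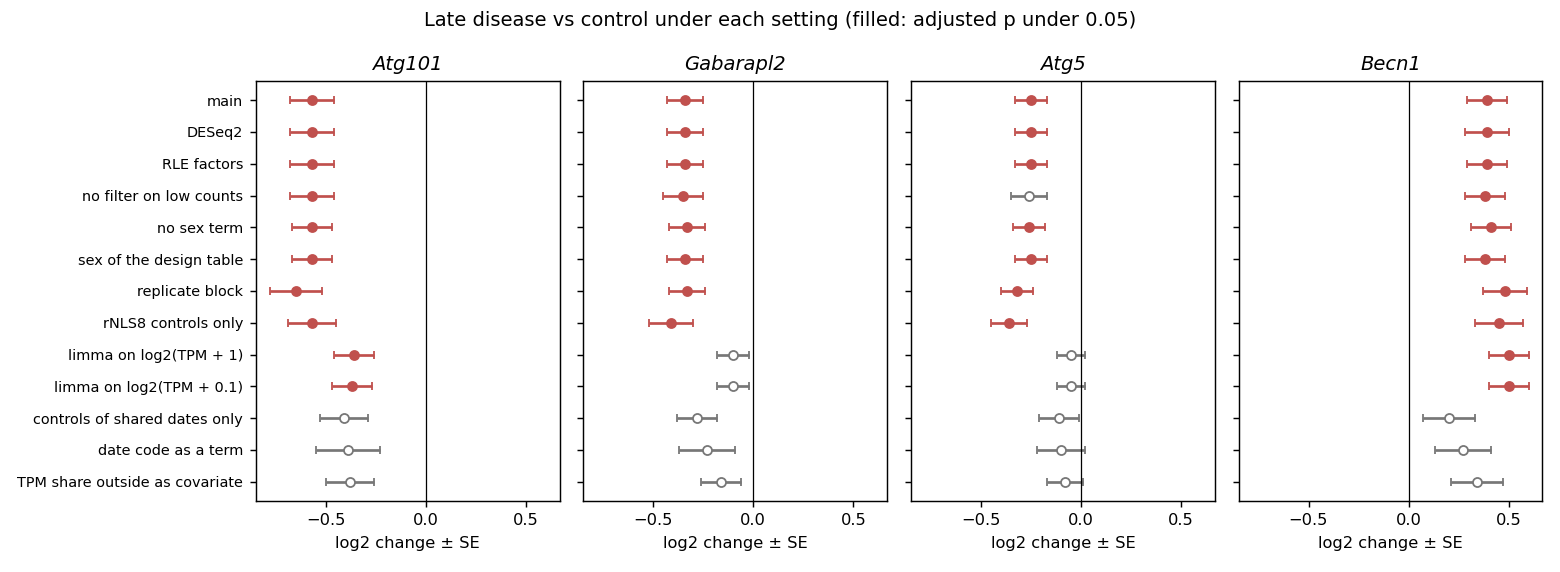
Log2 change of late disease against control with its SE (x axis) for the 4 called members under 13 settings (y axis); filled points have an adjusted p under 0.05. Each point keeps its side of 0, and the lower 3 rows, with date code, shared-date controls or TPM share, hold open points only.

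Late disease was also set against early disease, which shares its date codes. Here 0 of 36 members passed, against 0.741% of all genes, and 6 were at an unadjusted p under 0.05 (16.7%, against 14.2% of all genes). Atg101 was at 32.4 ± 5.41 against 42.9 ± 4.85 CPM (n = 7 each), a change of -0.41 ± 0.12 (adjusted p = 0.082, edgeR), and below the early disease median in 7 of 7 libraries. Mitf was at 22.8 ± 4.72 against 15 ± 4.47 CPM, a change of 0.60 ± 0.18 (adjusted p = 0.0921). Becn1 had a change of 0.35 ± 0.12 (adjusted p = 0.147) and Tfeb one of -0.25 ± 0.10 (adjusted p = 0.211). DESeq2 called 2 members, Atg101 lower and Mitf higher, beside 2.62% of all genes.

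In recovery, after 1 week back on DOX, 0 of 36 members passed against control, beside 3.98% of all genes (2.87% higher and 1.1% lower), and 3 were at an unadjusted p under 0.05 (8.33%, against 17.4%). DESeq2 called 0. Atg14 had a change of -0.28 ± 0.09 (adjusted p = 0.0734, edgeR) and Atg4c of -0.42 ± 0.15 (adjusted p = 0.108), and both were below the control median in all 7 libraries. Rb1cc1 had a change of -0.32 ± 0.13 (adjusted p = 0.175). Neutrophil and monocyte markers moved with this group. The summed level of 13 neutrophil markers was 219 to 7151 CPM in recovery and 0.109 to 334 CPM in controls, and that of 11 monocyte markers 71.6 to 622 CPM against 6.51 to 26.3 CPM. Of the neutrophil markers 0 were at 0 in every recovery library, and their part in the values of the members was not tested.

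Against late disease, recovery had 1 of 36 members past the test (2.78%), against 0.585% of all genes. Atg101 rose by 0.62 ± 0.12 (adjusted p = 0.0192, edgeR), to 49.5 ± 6.26 from 32.4 ± 5.41 CPM (n = 7 each). Recovery libraries 2, 3, 4, 5, 7, 8 and 9 were at 48.6, 44.1, 58.1, 47.1, 42.8, 47.7 and 58.3 CPM, all above the highest late disease library. The call ended without Recovery 9, Late disease 1 or Late disease 3, with an adjusted p of at most 0.0608, and recovery shares no date code with late disease. Uvrag was at 57 ± 9.59 against 86.1 ± 36.7 CPM (-0.58 ± 0.16, adjusted p = 0.0783) and Wipi1 at 4.87 ± 2.63 against 8.87 ± 5.18 CPM (-0.84 ± 0.29, adjusted p = 0.132). Late disease 6 held 168 CPM of Uvrag and 20.4 CPM of Wipi1, and the other late libraries 65.6 to 88.8 and 5.6 to 8.32 CPM. With 1 library left out at a time, the Uvrag change ran from -0.66 to -0.35 (adjusted p from 0.0455 to 0.194, edgeR). Becn1 had a change of -0.33 ± 0.12 (adjusted p = 0.145).

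The transgene's presence without its expression was examined in the 9 controls of date code 0810. Between 6 rNLS8 mice on DOX and 3 WT mice, 0 of 36 members passed edgeR's test, against 0.00772% of the 12958 genes tested, 0 were at an unadjusted p under 0.05 (against 3.92%), and DESeq2 called 0. In this comparison the WT mice had been off DOX and returned to it, so genotype and DOX history cannot be told apart. The largest changes were 0.59 ± 0.44 for Wipi1 and 0.42 for Atg16l1.

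As a single summary, the mean of the 36 members' log2 CPM was 5.44 ± 0.09 (SD, n = 14) in controls, 5.53 ± 0.06 (n = 7) in early disease, 5.54 ± 0.16 (n = 7) in late disease and 5.45 ± 0.08 (n = 7) in recovery. The same mean over all genes tested was 3.61, 3.68, 3.73 and 3.72. Among controls it was 5.41 ± 0.08 in rNLS8 mice, 5.47 ± 0.02 in WT mice of code 0810 and 5.47 ± 0.13 in the other WT mice. The group ranges overlapped throughout. Without Late disease 6, at 5.88, the other 6 late libraries ran from 5.38 to 5.56 (5.48 ± 0.07) and the difference from controls was 0.04.

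**Figure D4:**
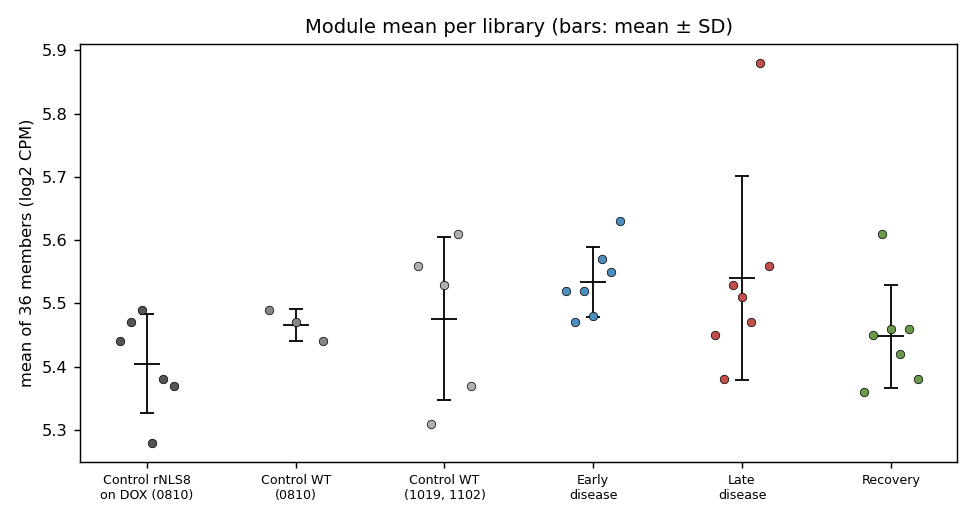
Mean log2 CPM of the 36 members (y axis, not from 0) for each library, by control kind and disease group, with bars for the mean and SD. Late disease 6 lies at 5.88 and the other late libraries at 5.38 to 5.56, within the span of the controls (5.28 to 5.61).

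Late disease 6 differed from the other late libraries member by member and not in 1 direction. It was the highest of the 7 in 21 of 36 members (58.3%, against 26% of all genes tested) and the lowest in 4 (11.1%, against 28.9%). Wipi1 was at 20.4 CPM in it against 5.6 to 8.32, Ulk1 at 97 against 28.3 to 43.3, Atg9a at 97.6 against 35.7 to 45.9 and Map1lc3b at 394 against 151 to 221 CPM. Those it held lowest were Atg4c, at 6.62 CPM against 10.8 to 16.6, Gabarapl2, Tfeb and Tfe3, the last at 121 against 177 to 216 CPM. Without this library 4 members still passed against control, beside 10.1% of all genes. Its low P2ry12 and high monocyte, border macrophage and oligodendrocyte marker levels, given above, moved with these values, and their part in them was not tested.

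**Figure D5:**
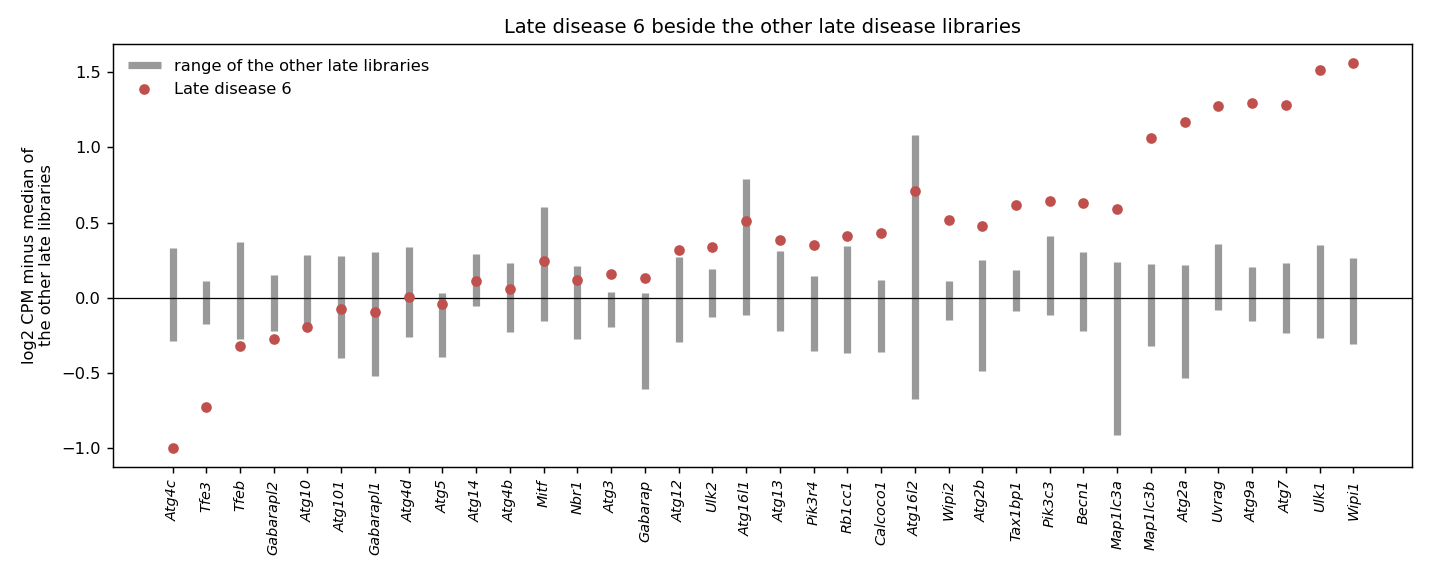
Log2 CPM of each member in Late disease 6 (red points) and the range of the other 6 late libraries (grey bars), both relative to the median of those 6 (y axis), with members ordered by their difference (x axis). Points for Wipi1, Ulk1, Atg7, Atg9a, Uvrag, Atg2a and Map1lc3b lie above 1, and Atg4c and Tfe3 lie lowest.

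Genes beside the core machinery were counted in late disease against control from lists of the same pathway. Of 30 tested lysosomal genes of the network that TFEB addresses, 12 were higher, against 9.01% of all genes tested, with a median change of 0.20 beside 0.02 for all genes. Ctsb, a lysosomal protease gene, rose by 0.58 ± 0.10 (adjusted p = 0.000213, edgeR), from 5233 ± 664 to 7823 ± 1594 CPM, and Mcoln1, a lysosomal calcium channel gene, by 0.48 ± 0.10 (adjusted p = 0.0021). Without Late disease 6 this count was 7, with the date term 0, and with shared-date controls or the TPM share 2 each. Of 15 genes for fusion of autophagosome and lysosome, 4 rose, Vps16, Stx17, Tecpr1 and Vps11, and 0 fell, against 9.01% and 6.39% of all genes. That count was 2 without Late disease 6 and 0 with the date term, shared-date controls or the TPM share. Of 33 nutrient-sensing genes around mTORC1 and AMPK, 3 rose and 4 fell, against the same shares of all genes, and without Late disease 6 these counts were 1 and 2. Of 18 further receptors 1 rose and 4 fell, or 1 and 3 without that library. Of 14 other ATG and vesicle-forming genes 0 rose and 1, Tmem41b, fell, and the count was 1 without it. Of 8 further regulators of transcription 0 passed, 1 was called lower without Late disease 6 and 1 with shared-date controls. The nutrient-sensing, receptor and other ATG lists had 0 called genes with shared-date controls and 0 with the TPM share. In all 6 lists 0 genes passed with the date term. Of all genes tested, 0.133% passed with the date term, 1.41% with shared-date controls and 1.87% with the TPM share. Without Late disease 6 the share of all genes was 10.1%.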

How the data were processed

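Libraries were made from sorted microglia with SMART-Seq Ultra Low-input and NexteraXT kits, which do not mark the strand, per the labels' protocols. For the 13 members that overlap an antisense gene, reads from a stretch shared by both cannot be assigned by strand. Overlap was taken over whole gene spans, introns included, so it does not show how many reads this touches. The authors deposited expected counts, estimated fragments per gene that need not be whole (84.67% were whole within 1e-06), and TPM values for the same genes. RSEM and DESeq2 with mm10 are named per the submitters' processing notes, with no version; further settings: not given in the sources used here. RSEM splits reads of near-identical copies by estimation, and the ATG8 family carries that uncertainty. A deposited design table gave date code, sex and count of alignments (38.4 to 52.7 M) per library. Its sex disagrees with the labels in Controls 7 and 8, and both were fitted. The series text gives 8 early disease and 9 recovery mice, and those beyond the 7 of each here were not analysed here.

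Expected counts were rounded and tested with edgeR 4.0.16 in R 4.3.3 by the quasi-likelihood F test, with TMM normalisation, filterByExpr by group, and group plus sex as terms in 1 fit of the 35 libraries. Benjamini-Hochberg adjustment ran over all 13501 genes, with an adjusted p under 0.05 as the threshold. Levels are CPM on the TMM-adjusted library size, and log2 CPM uses a prior count of 2. The SE of a log2 change was derived from the F statistic. Alternatives were DESeq2 1.42.0, limma 3.58.1 on log2 of the TPM plus 1 or 0.1, other controls and covariates, and leaving out each library. Precision covers sequenced fragments and not molecules, since no molecular identifiers are named. Symbols were matched by identifier for 45143 of 45706 genes, and gene coordinates are from GENCODE M21 on mm10. Every pair of replicate libraries differed by more than counting noise (lowest chi-square per degree of freedom 19.59 over 154 pairs). Labels describe single mice, but where libraries did not come from separate animals the p-values measure only the spread between them.

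The members, related lists and markers were chosen with earlier results of these data known. All 36 members are accounted for. Those with the 12 smallest adjusted p over the comparisons of phenotypes are given with their log2 change, SE and adjusted p, and the 6 smallest of these by library. Protein sequences were not used here. A result for 1 gene of a related list is not reported here.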

Additional observations from a re-analysis of the deposited data

Results flagged for a closer look

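In groups of 7 libraries, the highest or lowest library was called distant when its gap to the nearest other, divided by the range of the group, passed Dixon's 95% critical value. This was so in 16 of 111 groups tested, and chance flags about 1 in 20 groups. The members share libraries, so these are not independent. All values are log2 CPM.

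Late disease 6 was distant and high for Atg7 (6.33, the others 4.82 to 5.29), Atg9a (6.61, 5.16 to 5.52), Ulk1 (6.60, 4.83 to 5.44) and Uvrag (7.39, 6.04 to 6.47). It was also high for Wipi1 (4.36, 2.52 to 3.08), Wipi2 (6.11, 5.45 to 5.71), Map1lc3b (8.62, 7.24 to 7.79), Tax1bp1 (7.65, 6.94 to 7.22) and the mean of the 36 members (5.88, 5.38 to 5.56). For Tfe3 it was distant and low (6.92, 7.47 to 7.75). The same library had the lowest summed microglial marker level of late disease, 47854 CPM against 51741 to 74701. Late disease 1 was distant and low for Atg5 (5.87, 6.22 to 6.30) and Gabarap (7.16, 7.72 to 7.90).

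In early disease, library 5 was distant and low for Becn1 (5.66, 6.04 to 6.25) and library 3 for Uvrag (5.62, 6.05 to 6.29). In recovery, library 4 was distant and high for Uvrag (6.27, 5.52 to 5.83) and for the mean of the 36 members (5.61, 5.36 to 5.46). An interaction of sex with group was called for 0 members in each of the 3 groups against control by edgeR, with 3, 3 and 0 members at an unadjusted p under 0.05 in early disease, late disease and recovery, and for 0 of all genes. With the other sex assignment, that of the design table, the called members were again 0, and 1, 3 and 2 were at an unadjusted p under 0.05. DESeq2 was not run on the interaction.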

How the results depend on the processing

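Counts of members past the test are given beside each setting, with the share of all genes tested that passed there in brackets. In late disease against control the count of 4 (15.4%) was 0 with the date code as a term (0.133%) and 0 with shared-date controls (1.41%). It was 0 with the TPM share as a covariate (1.87%) and 12 by limma with pseudocount 1 (21.4%) or 0.1 (20.9%). In early disease against control the count of 0 was 4 (10.5%) and 3 (10.3%) by limma with pseudocounts 1 and 0.1. With the rNLS8 controls alone it was 1 (5.48%). In late against early disease the count of 0 (0.741%) was 2 by DESeq2 (2.62%). It was 1 by limma with pseudocount 1 (0.872%) or 0.1 (0.607%). In recovery against late disease the count of 1 (0.585%) was 2 by DESeq2, where 155 of all genes were higher and 189 lower. The member gained there was Uvrag (-0.57, adjusted p = 0.0325, DESeq2). Without the filter on low counts Atg5 did not pass in late disease (adjusted p = 0.0587). The mean of the members, late disease minus control, moved from 0.10 to 0.28 on log2(TPM + 0.1), and early disease minus control from 0.09 to 0.29 and 0.32 on log2 of TPM plus 1 and 0.1. The median change of all genes moved too on these scales, to 0.23 in late disease and to 0.22 and 0.26 in early disease. On counts that median was 0.02 in late and 0 in early disease. DESeq2 size factors in edgeR (RLE), the sex of the design table and no sex term left the 4 late calls in place.

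Leaving out 1 library at a time gave 3 to 6 members in late disease, 0 to 1 in recovery against control, 0 to 1 in late against early disease, 0 to 2 in recovery against late disease, and 0 in early disease and among the controls. Gains came without Recovery 4, Control 9 or Control 11 (recovery against control), Early disease 8 (late against early), and Recovery 4 or Late disease 5 (recovery against late). The share of all genes called in late disease was 10.1% without Late disease 6, against 15.4% with every library. Shares for the other libraries left out are not given here, so these counts are not read as a result about the members.

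The replicate block was fitted although the numbers share only a number: same-numbered libraries gave correlations of -0.201 to 0.137 over 37 pairs, with 2 over 0.1. With the replicate block 6 members passed in late disease, beside 17.9% of all genes. In recovery against control 1 passed (Atg4c, -0.54, adjusted p = 0.0364, edgeR), beside 6.76%. In recovery against late disease 0 passed (Atg101 adjusted p = 0.114, edgeR), where 1 of all genes was higher and 1 lower. Depth limits Atg16l2 and Wipi1, with as few as 2 and 36 counts in a library.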

Other observations

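In recovery against control, 8 of the 30 tested lysosomal genes were higher and 0 lower, against 2.87% and 1.1% of all genes, with a median change of 0.14 beside -0.01 for all genes, while 0 of the 36 members of the autophagy machinery passed. In the same comparison 11 of 11 tested neutrophil markers and 8 of 9 tested monocyte markers were higher, and their part in the lysosomal values was not tested. Gusb rose by 0.47 ± 0.07 (adjusted p = 1.3e-05, edgeR), from 457 ± 42.2 to 636 ± 51.3 CPM, and Galns by 0.62 ± 0.13 (adjusted p = 0.00434). Both encode lysosomal enzymes that break down glycosaminoglycans. Stk11, which encodes the kinase LKB1 that activates AMPK, rose by 0.90 ± 0.19 in recovery (adjusted p = 0.00405), from 8.11 ± 2.87 to 15.1 ± 2.49 CPM, and by 0.78 ± 0.19 in late disease (adjusted p = 0.00652). In late disease 0 genes of the nutrient-sensing list, Stk11 among them, were called with the date term, with shared-date controls or with the TPM share. Of all genes 0.133%, 1.41% and 1.87% were called in those fits. These comparisons share their control libraries, and recovery cannot be told apart from its date code.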
